A study of Homo sapiens with 8 samples.

Results

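Genes of the neuronal cytoskeleton and of intermediate filaments were followed in human neuroblastoma cells with and without an shRNA against TRPM7, an ion channel fused to a kinase. The 10 genes were NEFL, NEFM, INA, PRPH, MAP2, MAPT, STMN2, GAP43, DCX and VIM, and every probe of Illumina HumanHT-12 v4 bead arrays that carries one of these symbols was taken. This gave 19 of the 47322 probes on the array and 10 of its 31426 gene symbols. Neuroblastic SH-SY5Y cells and epithelial-like SH-EP2 cells each carried, from a lentivirus, either a TRPM7 shRNA or, as control, a scrambled one. This made 4 groups of 2 arrays (replicates 1 and 2), and each group was a puromycin-selected, stably transduced population of an established line. A single TRPM7 shRNA was used on the arrays. The preparation was in duplicate from cell cultures, and neither the labels nor the methods say whether the duplicates came from separate ones, so that p-values measure the spread between these samples, which may be technical. The question asked of these genes was whether neuronal differentiation is visible with TRPM7 shRNA.

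Neurons carry a cytoskeleton of their own. Neurofilament light and medium chains (NEFL and NEFM), alpha-internexin (INA) and peripherin (PRPH) assemble into the intermediate filaments of axons, while vimentin (VIM) forms those of mesenchymal cells and of neural progenitors. MAP2 and tau (MAPT) bind and stabilise microtubules in dendrites and axons, doublecortin (DCX) binds microtubules in migrating immature neurons, stathmin-2 (STMN2, also SCG10) regulates microtubule dynamics in the growth cone, and GAP43 is a membrane protein of growing axons. In neuroblastoma cell lines, neurofilaments and growth cone proteins are commonly read as signs of the neuroblastic type and of differentiation along the sympathetic neuron lineage.

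The 250 bases before the RefSeq start of a member on GRCh38.p14 are shown for 4 genes on which the results below turn. They are DCX and GAP43, which had the largest fold increases among these genes in SH-SY5Y cells, VIM, which fell there, and INA, which was high in SH-SY5Y cells and undetected in SH-EP2 cells. Capitals mark, on either strand, the letters of 4 motifs. They are TATAAA (the TATA box), CCAAT (the CCAAT box), CAGCTG (an E-box) and GGGCGG (a GC box).
DCX (chrX:111412193-111412442, minus strand): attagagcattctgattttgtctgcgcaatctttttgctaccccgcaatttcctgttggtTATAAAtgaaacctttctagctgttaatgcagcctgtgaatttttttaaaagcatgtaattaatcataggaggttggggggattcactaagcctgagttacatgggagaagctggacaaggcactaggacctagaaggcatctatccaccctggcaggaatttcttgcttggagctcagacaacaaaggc
GAP43 (chr3:115623260-115623509, plus strand): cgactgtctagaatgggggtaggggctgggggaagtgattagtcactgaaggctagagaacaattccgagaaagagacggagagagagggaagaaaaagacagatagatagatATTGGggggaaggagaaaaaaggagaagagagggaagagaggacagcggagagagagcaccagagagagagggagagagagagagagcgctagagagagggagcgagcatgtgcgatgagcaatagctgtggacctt
VIM (chr10:17227991-17228240, plus strand): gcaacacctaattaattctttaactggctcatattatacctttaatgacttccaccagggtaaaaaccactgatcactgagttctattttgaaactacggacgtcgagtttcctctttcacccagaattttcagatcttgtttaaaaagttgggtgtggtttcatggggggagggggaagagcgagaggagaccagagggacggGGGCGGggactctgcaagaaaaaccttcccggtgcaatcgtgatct
INA (chr10:103276888-103277137, plus strand): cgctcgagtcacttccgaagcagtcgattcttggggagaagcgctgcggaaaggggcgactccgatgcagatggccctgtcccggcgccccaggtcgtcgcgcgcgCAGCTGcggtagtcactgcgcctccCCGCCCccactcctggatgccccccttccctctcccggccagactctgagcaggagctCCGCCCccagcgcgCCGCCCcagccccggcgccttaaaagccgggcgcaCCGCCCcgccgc
The INA window was the most GC-rich of the 4, with 72.8% G or C, 4 GC boxes and 1 CAGCTG. The VIM window held 1 GC box and 46% G or C, the DCX window, 1 of 3 for this gene, 1 TATAAA, 190 bases before the start, and 42.8% G or C, and the GAP43 window 1 CCAAT and 51.6% G or C. Of 35116 promoter windows of the same length, 42.6% held GGGCGG, 32% CCAAT, 14% CAGCTG and 10.7% TATAAA. The E-box is contained in the looser pattern CANNTG, which 61.8% of the windows held, and GAP43 had 1 match to it and neither the DCX window shown nor that of VIM any (0). A match is a description of the letters. Windows were found for 6 of the 10 genes, and those of PRPH and MAP2 are not shown.

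On the arrays, 40.85% to 44.17% of probes were detected (detection p under 0.05), and the median deposited signal of an array lay between 104.7 and 119.86. TRPM7 itself had 1 probe, with a detection p of 0.0753 to 0.201, and was detected on 0 of 8 arrays, so that the knockdown was not measurable here. The lines carried the markers of their labels, though not only these. Of 9 neuroblastic, noradrenergic genes, 8 were detected on both arrays of each SH-SY5Y group, all but TH. Of 9 mesenchymal genes, 9 were detected on both arrays of each SH-EP2 group. Of the same 9 mesenchymal genes, 5 were detected on both arrays of SH-SY5Y control and 7 of SH-SY5Y TRPM7 shRNA cells. Of the 9 neuroblastic genes, 4 were in SH-EP2 control and 3 in SH-EP2 TRPM7 shRNA cells. TWIST1, on the mesenchymal list, had a higher mean log2 signal in SH-SY5Y than in SH-EP2 control cells (11.66 against 10.42). SH-SY5Y cells lacked detectable FN1 and PRRX1, and SH-EP2 cells lacked PHOX2A, TH, CHGA and DDC. Of 7 Schwann cell and glia genes, 1 was detected on both arrays in every group, and SOX10, S100B, GFAP and FOXD3 were undetected throughout.

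In control cells, all 10 were lower in SH-EP2 than in SH-SY5Y cells by their brightest probe. Of the 19 probes, 13 passed an adjusted p under 0.05 (68.4%, where 26.2% of all probes did), 12 of them lower in SH-EP2 cells, where 14% of all probes were lower. Every gene was detected on both arrays of both SH-SY5Y groups. In SH-EP2 control cells 4 of 10 were, namely PRPH, VIM, MAP2 and MAPT. The same 4 were detected in SH-EP2 TRPM7 shRNA cells, where NEFL, NEFM, INA, DCX and STMN2 remained undetected and GAP43 was detected on 1 of 2 arrays.

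**Figure D1:**
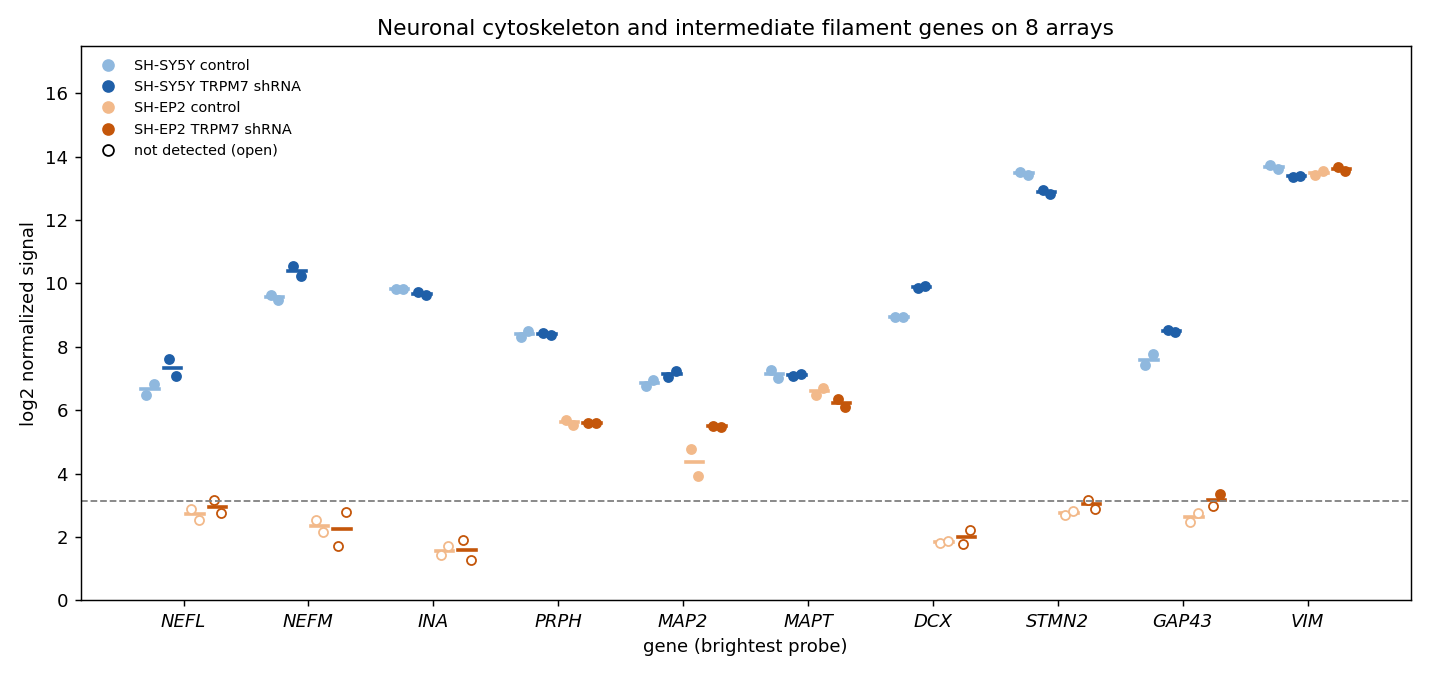
Log2 normalized signal of the brightest probe of each gene (vertical axis) on the 8 arrays, by group (points, 1 per array, open where not detected; bars, group means). The dashed line is the mean over arrays of the lowest signal among detected probes, which was under 3.24 on every array. NEFM, INA and DCX lie under it in SH-EP2 cells, NEFL and STMN2, also undetected there, reach at most 3.16 and 3.17, and VIM lies between 13.35 and 13.75 on every array.

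Because these genes were undetected on both SH-EP2 control arrays, a bound on the fold is given for them, with the lowest signal of a detected probe in place of a lower value. STMN2 was at least 1215-fold lower in SH-EP2 control cells by one probe (ILMN_1795679) and at least 1094-fold by the other (ILMN_2126038). INA was at least 96.8-fold, NEFM at least 80.5-fold, DCX at least 52.7-fold, GAP43 at least 20.6-fold and NEFL at least 10.7-fold lower. The largest adjusted p among these was 1.67e-09. Among the genes detected in both lines, the log2 difference of SH-EP2 from SH-SY5Y control cells was -2.79 for PRPH (adjusted p = 1.51e-11), -2.51 and -2.29 for the 2 brighter MAP2 probes (adjusted p = 7.36e-08 and 3.30e-07) and -0.55 for MAPT (ILMN_2310814, adjusted p = 0.0224). For VIM the difference was small, -0.19 (adjusted p = 0.0356) by one probe and -0.10 (95% interval -0.23 to 0.03, adjusted p = 0.313) by the other. Over the other settings it lay between -0.34 and -0.12 for the former VIM probe and between -0.66 and -0.15 for MAPT. Neither passed in all of these settings. The probe that was higher in SH-EP2 cells is a MAPT probe (ILMN_1800049) that no array detected. Between 10 and 14 of the 19 probes passed under the other settings and without any 1 array.

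With TRPM7 shRNA in SH-SY5Y cells, doublecortin rose 1.90-fold, and STMN2 and VIM fell. GAP43 and the neurofilament chains NEFM and NEFL had higher fitted values on both arrays but did not pass the adjusted threshold, and INA, PRPH, MAP2 and MAPT had changes with intervals that include 0. Of the 19 probes 5 passed (26.3%), 1 higher and 4 lower. Over all probes 2.11% passed (0.807% higher and 1.3% lower), and of the 24878 probes detected on an array of the comparison 3.95% did. By brightest probe this was 3 of 10 genes, against 2.57% of all genes. The median log2 change was -0.01 over the 19 probes and 0.00 over all probes.

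**Figure D2:**
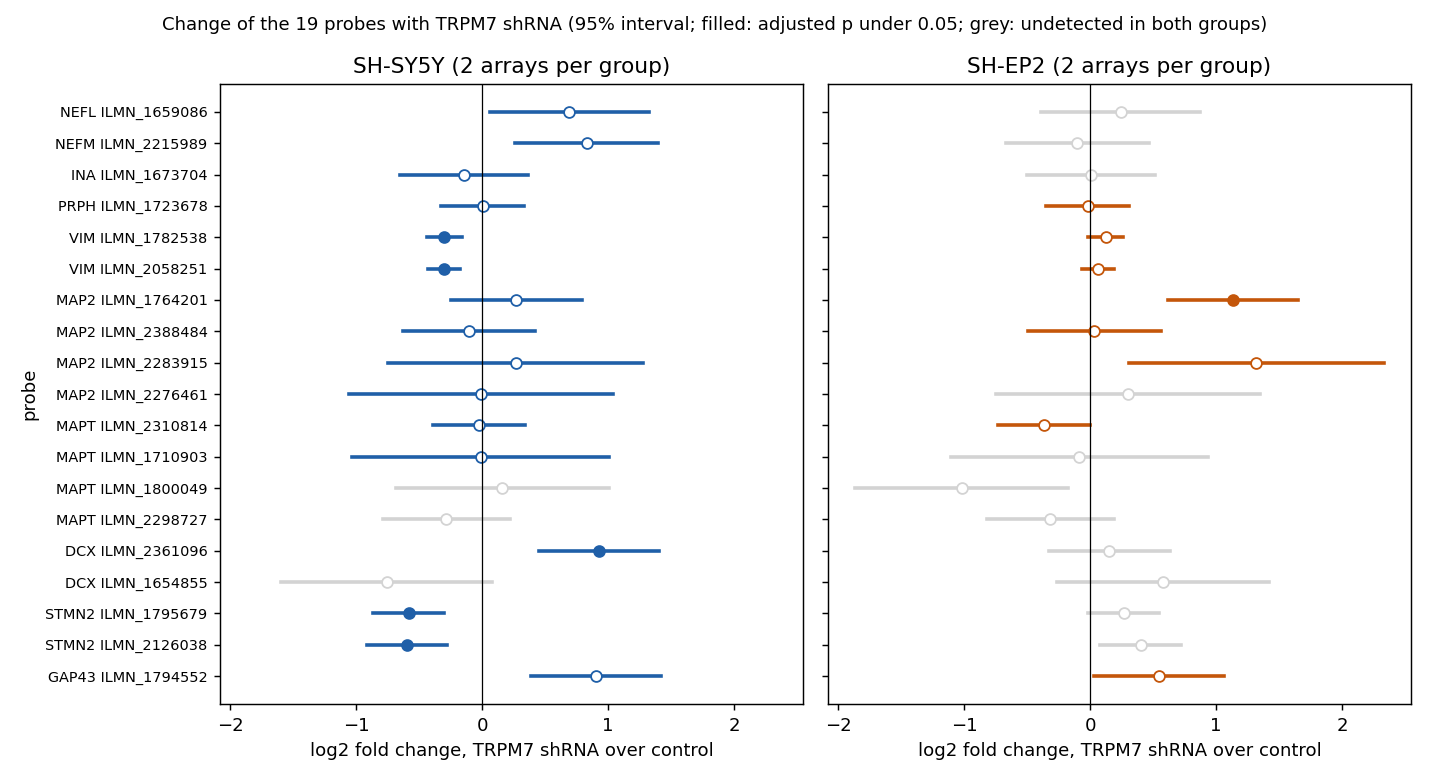
Log2 fold change of each of the 19 probes (horizontal axis) with TRPM7 shRNA over control in SH-SY5Y cells (left) and SH-EP2 cells (right), with 95% intervals, 2 arrays per group. Filled points passed an adjusted p under 0.05, and grey marks probes undetected in both groups. In SH-SY5Y cells DCX is filled on the right of 0 and both probes of VIM and STMN2 on its left, and in SH-EP2 cells a single MAP2 probe is filled.

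The DCX probe ILMN_2361096 read a log2 signal of 8.94 and 8.96 on the control arrays and of 9.84 and 9.91 on the TRPM7 shRNA arrays. Both TRPM7 shRNA arrays were higher than both control arrays, with deposited signals of 646 and 498 against 1038 and 1206. The log2 fold change was 0.93 (standard error 0.23, 95% interval 0.45 to 1.41, adjusted p = 0.0359). The other DCX probe (ILMN_1654855) was not detected on any array. The DCX call was lost without any 1 of the 4 SH-SY5Y arrays (adjusted p 0.178 to 0.302, log2 fold change 0.89 to 0.96). It was also lost with a replicate block (adjusted p = 0.062), without an intensity trend in the variance (0.225) and in a per-probe test (0.224).

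GAP43 read 7.42 and 7.77 on the control arrays and 8.53 and 8.48 on the TRPM7 shRNA arrays. The groups did not overlap. Its log2 fold change of 0.91 (standard error 0.25, 95% interval 0.39 to 1.42) had an adjusted p of 0.0654. With neqc, another background correction, the adjusted p was 0.0042 at a log2 fold change of 0.84, and with median scaling it was 0.0379 at 1.04. It also passed without SH-EP2 control replicate 1 (adjusted p = 0.0467) or SH-EP2 TRPM7 shRNA replicate 1 (adjusted p = 0.0471), and not without any 1 SH-SY5Y array (adjusted p 0.142 to 0.363), with the replicate block (0.0929), without the intensity trend (0.277) or per probe (0.293).

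The neurofilament chains had the same direction with a wider spread. NEFM read 9.64 and 9.48 in control cells and 10.54 and 10.24 in TRPM7 shRNA cells. NEFL, a dimmer probe, read 6.49 and 6.82 in control cells and 7.62 and 7.07 in TRPM7 shRNA cells. For both genes the TRPM7 shRNA arrays lay above the control arrays. The log2 fold change was 0.83 for NEFM (95% interval 0.26 to 1.40, adjusted p = 0.16) and 0.69 for NEFL (95% interval 0.06 to 1.32, adjusted p = 0.372). The NEFM adjusted p was 0.00252 with neqc, 1.62e-05 with normexp, 3.50e-06 without background correction and 1.07e-04 with each line fitted alone. It was 0.127 with median scaling, 0.194 with the replicate block, 0.542 without the intensity trend and 0.639 in a per-probe test. Without 1 array the NEFM log2 fold change lay between 0.68 and 0.98. The NEFL adjusted p was 0.0223 with a normexp correction, at a log2 fold change of 0.45, and 0.37 to 0.84 without 1 SH-SY5Y array, with a log2 fold change of 0.42 without TRPM7 shRNA replicate 1.

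INA and PRPH, the other neuronal filament proteins, did not have that direction. INA read 9.83 and 9.82 in control cells and 9.72 and 9.65 in TRPM7 shRNA cells, slightly lower on both arrays, and its log2 fold change was -0.14 (95% interval -0.65 to 0.37, adjusted p = 0.907). PRPH read 8.32 and 8.49 in control cells and 8.45 and 8.37 in TRPM7 shRNA cells. These values overlapped, and the log2 fold change was 0.01 (95% interval -0.32 to 0.33). Whether the change of INA or PRPH differs from that of NEFM was not tested.

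The microtubule-associated proteins MAP2 and tau did not pass either. MAP2 read 6.78 and 6.95 against 7.03 and 7.24 by its brightest probe (ILMN_1764201), with the TRPM7 shRNA arrays higher, and the log2 fold change was 0.27 (95% interval -0.25 to 0.79). Its second bright probe (ILMN_2388484) had -0.10 (95% interval -0.63 to 0.42), so that these probes differed in sign. MAPT read 7.25 and 7.03 against 7.08 and 7.15, which overlap, with a log2 fold change of -0.02 (95% interval -0.39 to 0.34). Another MAP2 probe (ILMN_2283915) was undetected in control cells and detected on both TRPM7 shRNA arrays, at least 1.14-fold higher (adjusted p = 0.914).

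STMN2, the growth cone stathmin, fell by both of its probes. ILMN_1795679 read 13.52 and 13.44 in control cells and 12.96 and 12.82 in TRPM7 shRNA cells, and ILMN_2126038 read 13.35 and 13.30 against 12.70 and 12.75. Each TRPM7 shRNA array was lower than each control array. The log2 fold changes were -0.58 (standard error 0.13, adjusted p = 0.0223) and -0.60 (standard error 0.15, adjusted p = 0.0458), or 1.50-fold and 1.51-fold lower. VIM fell less. Its probes read 13.75 and 13.60 against 13.35 and 13.40 (ILMN_1782538) and 13.12 and 13.12 against 12.86 and 12.79 (ILMN_2058251), again without overlap. The log2 fold changes were -0.30 (standard error 0.07, adjusted p = 0.0176) and -0.30 (standard error 0.06, adjusted p = 0.00898), a 1.23-fold decrease by each probe. With median scaling in place of quantile normalization none of these 4 probes passed, the log2 fold changes being -0.44 and -0.50 for STMN2 and -0.19 and -0.19 for VIM (adjusted p 0.181 to 0.308), and STMN2 did not pass without any 1 of the SH-SY5Y arrays (adjusted p 0.114 to 0.327). VIM lost its call at ILMN_1782538 without control replicate 1 (-0.23, adjusted p = 0.151) or TRPM7 shRNA replicate 1 (-0.27, adjusted p = 0.122), and at ILMN_2058251 without TRPM7 shRNA replicate 2 (-0.27, adjusted p = 0.0696). With neqc ILMN_1782538 did not pass (adjusted p = 0.067), and with each line fitted alone neither VIM probe did (0.064 and 0.07).

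Counted by array order alone, 6 of the 19 probes had both TRPM7 shRNA arrays above both control arrays and 7 had them below. Over all probes these shares were 20% and 19.2%. The 6 included MAP2 ILMN_2283915, undetected in control cells, and the 7 included DCX ILMN_1654855, which no array detected. Markers of cell type moved in the same arrays: ISL1, a noradrenergic transcription factor, fell (log2 fold change -0.45, adjusted p = 0.0144), and LOX, a mesenchymal collagen cross-linking enzyme, was undetected in control cells and at least 3.30-fold higher with TRPM7 shRNA (adjusted p = 8.15e-05). Over the 9 neuroblastic markers 1 passed, with a mean log2 level per array of 9.65 and 9.72 in control cells and between 9.40 and 9.55 in TRPM7 shRNA cells. Over the 9 mesenchymal markers 1 passed, with mean levels of 4.99 to 5.13 and 5.13 to 5.29. LOX had the largest rise of these markers, from a group mean of 3.13 to 4.88. The means of NOTCH2 (4.37 to 3.62), COL1A1 (6.48 to 6.17) and YAP1 (7.30 to 7.22) were lower with TRPM7 shRNA. Those of CD44 (5.53 to 5.82), TWIST1 (11.66 to 11.79) and IL6ST (3.21 to 3.22) were higher, and FN1 and PRRX1 were undetected. Their part in the results was not tested, and in bulk RNA fewer cells of a type and less RNA per cell cannot be told apart.

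**Figure D3:**
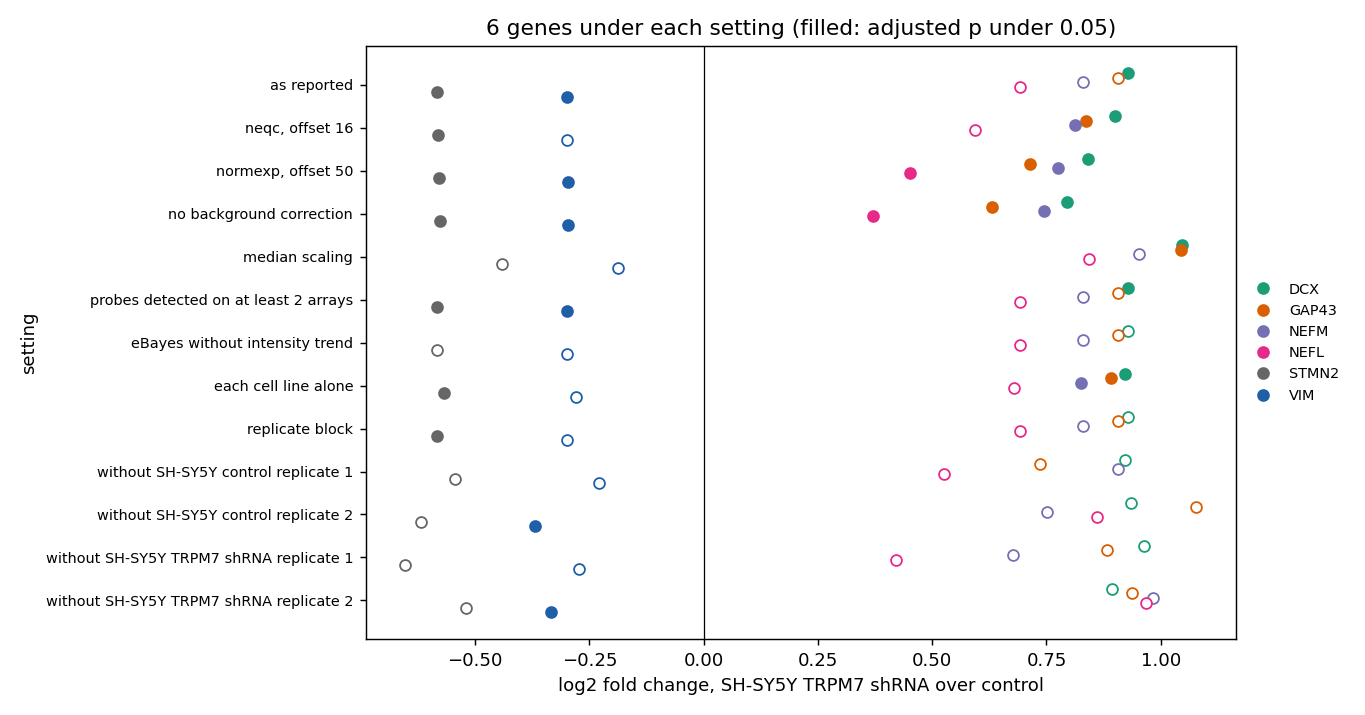
Log2 fold change in SH-SY5Y cells with TRPM7 shRNA (horizontal axis) of the brightest probe of 6 genes under the processing settings listed (rows), filled where the adjusted p was under 0.05. DCX, GAP43, NEFM and NEFL stay above 0 and STMN2 and VIM below 0 in every row.

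In SH-EP2 cells, a single MAP2 probe rose with TRPM7 shRNA. None of the neurofilament, INA, DCX or STMN2 probes was detected in either group, so that no fold is given for them. Of the 19 probes 8 were detected on an SH-EP2 array and 1 passed (5.26%), against 3.02% of all probes (1.48% higher, 1.54% lower) and 5.93% of the 23931 probes detected on an array of the comparison. By array order, 8 of the 19 were higher and 3 lower without overlap, where 22.1% and 20.8% of all probes were, and 11 of the 19 were undetected. Among the 8 were both STMN2 probes and DCX ILMN_1654855, and among the 3 were MAPT ILMN_1800049 and ILMN_2298727. These probes were undetected in both groups, so that their order is that of background signals. GAP43, also among the 8, was detected on 1 array.

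MAP2 read 4.79 and 3.92 in SH-EP2 control cells and 5.51 and 5.47 in TRPM7 shRNA cells by its brightest probe. The groups did not overlap, and the control arrays lay further apart than the TRPM7 shRNA arrays. The log2 fold change was 1.14 (standard error 0.25, 95% interval 0.62 to 1.65, adjusted p = 0.0117), or 2.20-fold. In deposited signal this was 143 and 126 against 161 and 158, on arrays whose fitted background lay between 106.71 and 111.13. The second bright probe (ILMN_2388484) read 5.22 and 4.41 against 5.09 and 4.61, which overlap, with a log2 fold change of 0.03 (95% interval -0.49 to 0.56). The brightest probe was chosen by its mean over all 8 arrays, those with TRPM7 shRNA included. In control cells ILMN_2388484 was the brighter one, with means of 4.81 against 4.35 in SH-EP2 and 7.11 against 6.86 in SH-SY5Y cells. The choice of the called probe therefore used the values that were compared. The probe ILMN_2283915 read 3.68 and 2.42 against 4.23 and 4.51, with 1 of 2 control arrays detected and a log2 fold change of 1.32 (95% interval 0.31 to 2.33, adjusted p = 0.201), and ILMN_2276461 was undetected. The transcripts that each probe reads were not analysed here. Without SH-EP2 control replicate 2 the log2 fold change of the called probe was 0.70 (adjusted p = 0.219), and without either TRPM7 shRNA array the adjusted p was 0.0907 and 0.0746. With normexp correction it was 0.34 (adjusted p = 0.0608).

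**Figure D4:**
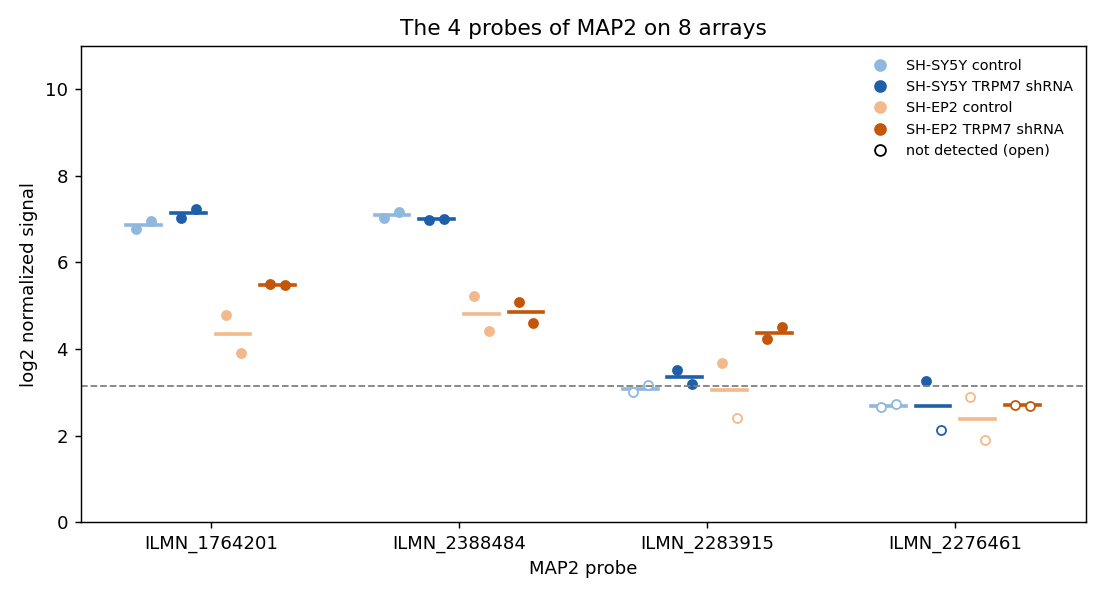
Log2 normalized signal (vertical axis) of the 4 MAP2 probes on the 8 arrays by group (points, open where not detected; bars, group means; dashed line, mean of the lowest detected signal). In SH-EP2 cells ILMN_1764201 reads 3.92 and 4.79 in control and 5.47 and 5.51 in TRPM7 shRNA cells, while the values of ILMN_2388484 overlap.

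The other genes detected in SH-EP2 cells did not pass. VIM read 13.43 and 13.54 in control and 13.67 and 13.55 with TRPM7 shRNA, and its log2 fold change was 0.12 (95% interval -0.01 to 0.26, adjusted p = 0.472), and the other VIM probe had 0.06 (95% interval -0.06 to 0.19). PRPH read 5.70 and 5.53 against 5.60 and 5.60, and its log2 fold change of -0.02 had a 95% interval of -0.35 to 0.31. MAPT read 6.48 and 6.70 against 6.36 and 6.09, lower on both arrays, with a log2 fold change of -0.37 (95% interval -0.73 to -0.00087, adjusted p = 0.397). GAP43 read 2.49 and 2.75 in control cells, both undetected, and 2.98 and 3.36 with TRPM7 shRNA, of which the latter was detected. Markers moved here as well. LOX fell by 1.15, COL1A1 by 0.56 and TWIST1 by 0.37 on the log2 scale, CD44 rose by 0.77 and GATA2 fell by 0.78. The mean level per array of the 9 mesenchymal markers, 4 of which passed, was 8.98 and 9.03 in control and 8.81 and 8.85 in TRPM7 shRNA cells, and that of the 9 neuroblastic markers, stayed under 3.77, with PHOX2A, TH, CHGA and DDC undetected. Of these 9, GATA2 and the undetected CHGA passed, and 0 or 1 of them did without any 1 array, as did 0 to 4 of the mesenchymal markers. Their part in the MAP2 value was not tested.

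Whether the effect of the shRNA differs between the lines was tested as an interaction, the log2 fold change in SH-EP2 minus that in SH-SY5Y cells. VIM passed by both probes, with 0.42 (standard error 0.09, adjusted p = 0.023) and 0.37 (standard error 0.09, adjusted p = 0.0389), but not in most of the other settings. It fell in SH-SY5Y cells and had log2 fold changes of 0.12 and 0.06 in SH-EP2 cells. The STMN2 probes also passed, with 0.85 (adjusted p = 0.0241) and 1.00 (adjusted p = 0.0191), but STMN2 was undetected on every SH-EP2 array, so that these values set a change in SH-SY5Y cells against background and do not show that the effect differed. These were 4 of the 19 probes (21.1%), where 1.4% of all probes passed and 0.792% of all probes did with a positive difference. The DCX difference was -0.77 (95% interval -1.45 to -0.10, adjusted p = 0.393). DCX too was undetected on every SH-EP2 array, so that this value also sets a change in SH-SY5Y cells against background. The difference of the called MAP2 probe was 0.86 (95% interval 0.13 to 1.60, adjusted p = 0.371). Neither the DCX nor the MAP2 effect was shown to differ between the lines. With median scaling 0 of the 19 passed, with an adjusted p of 0.0973 and 0.17 for the VIM probes. Without the intensity trend and in a per-probe test 0 passed too, and with the replicate block 1 did. Among probes detected on at least 2 arrays 2 passed, both of STMN2. Without 1 array between 0 and 4 passed, and the adjusted p of the VIM probes lay between 0.011 and 0.247.

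Around the 10 genes, 7 lists of related genes held 124 genes on the array. In SH-SY5Y cells 3 rose and 4 fell (5.65%, where 2.57% of all genes passed, 0.999% higher and 1.57% lower), and 107 of the 124 were detected. In SH-EP2 cells 5 rose and 12 fell (13.7%, where 3.67% passed, 1.82% higher and 1.85% lower), and 90 were detected. The median log2 change over the lists was -0.01 and -0.06, against 0.00 and 0.01 over all genes. Without 1 array, the number of calls in SH-EP2 cells went from 4 tubulins to between 0 and 5, from 3 microtubule-associated genes to between 1 and 3, from 5 growth cone genes to between 3 and 5, from 2 neuronal and synaptic genes to between 0 and 2 and from 1 spectrin, ankyrin and motor gene to between 0 and 2. In SH-SY5Y cells it went from 2 regulators to between 0 and 2 and from 2 spectrin, ankyrin and motor genes to between 1 and 3.

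Among 12 other intermediate filament genes none (0) passed in SH-SY5Y cells. There the heavy neurofilament chain NEFH read 8.69 and 8.66 in control and 8.77 and 8.65 with TRPM7 shRNA, and its log2 fold change was 0.04 (95% interval -0.33 to 0.40), and nestin (NES), the filament of neural progenitors, had -0.16 (95% interval -0.49 to 0.18). In SH-EP2 cells NES rose by 1.08 (standard error 0.16, adjusted p = 3.77e-04), from 4.44 and 4.78 to 5.75 and 5.62. Of 21 microtubule-associated genes none (0) passed in SH-SY5Y cells and 3 fell in SH-EP2 cells. They were MAP6 (-1.50, detected on 1 of 2 TRPM7 shRNA arrays), which stabilises microtubules, MAP1B (-0.84, adjusted p = 0.00103), an early axonal microtubule protein, and NDEL1 (-0.36), a partner of dynein. Of 13 tubulins, TUBA1B fell in SH-SY5Y cells (-0.36, adjusted p = 0.00184). In SH-EP2 cells 4 fell, TUBB2A (-0.42), TUBB2C, now named TUBB4B (-0.40), and TUBB2B (-0.33) the most. The neuronal tubulin TUBB3 had log2 changes of -0.01 and -0.14 and did not pass in either line.

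Of 19 growth cone and neurite genes, DPYSL3, a collapsin response mediator, rose in both lines, by 0.28 (adjusted p = 0.0415) in SH-SY5Y and by 0.53 (adjusted p = 1.12e-04) in SH-EP2 cells. The SH-SY5Y call was lost without any 1 of the 8 arrays, when 0 genes of this list passed there. In SH-EP2 cells MARCKSL1 rose too (0.57), and NCALD (-0.80), PALM (-0.61) and CRMP1, which was undetected with TRPM7 shRNA and at least 1.30-fold lower, fell. Of 16 axonal spectrin, ankyrin and motor genes, ankyrin-2 (ANK2, -1.68, adjusted p = 0.00542) and the dynein intermediate chain DYNC1I1 (-1.31, adjusted p = 1.22e-04) fell in SH-SY5Y cells, and the kinesin KIF1B rose in SH-EP2 cells (0.61, adjusted p = 0.028). Of 20 neuronal and synaptic genes, the vesicle protein SYT4 fell in SH-SY5Y cells (-1.06, adjusted p = 5.89e-04), while in SH-EP2 cells STX1A rose (0.79) and THY1 fell (-0.48). Of 23 regulators of the neuronal programme, EBF1 rose in SH-SY5Y cells (0.82, adjusted p = 0.0194) and fell in SH-EP2 cells (-1.18, adjusted p = 6.15e-04), and EBF3 rose in SH-SY5Y cells (2.97, adjusted p = 0.00321), where 1 of 2 control arrays detected it.

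For the member probe with the smallest adjusted p in each line, the genes with the most similar values over the 8 arrays were looked up, each centred on its own mean. VIM (ILMN_2058251) was nearest to C4orf14, now named NOA1 (distance 0.0391 on the log2 scale, r = 0.993 over 8 arrays), then to C19orf56, now WDR83OS (0.105), and C2orf28, now ATRAID (0.134). MAP2 (ILMN_1764201) was nearest to FAM184A (0.509, r = 0.988), SPATA7 (0.51) and LOC440396 (0.543). The 8 arrays fall in 4 groups, and the search covered 17147 and 17084 probes, so that these are descriptions of likeness only.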

How the data were processed

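Expression was measured in 8 samples of 2 cell lines on Illumina HumanHT-12 v4 arrays. The authors extracted bead signals in GenomeStudio 2011.1 (per the submitters' processing notes) and deposited them as intensities on a linear scale, not normalized, with a detection p-value for each probe. Groups are the cell line and shRNA that the labels give. Having 2 arrays a group limits precision.

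After the methods of the study, the RMA background model was applied, then quantile normalization over 8 arrays and log2. Comparisons were two-sided contrasts of 1 linear model over the 4 groups, fitted with limma 3.58.1 (R 4.3.3, statmod 1.5.0) and an eBayes variance that follows intensity. The Benjamini-Hochberg adjustment ran over all 47322 probes, with a threshold of 0.05. The methods do not name their test. A probe was called detected at a detection p under 0.05. Counts of genes use each gene's brightest probe by the mean over all 8 arrays. Where no array of a group detected a probe, the fold is a bound, set per array by the higher of the lowest detected signal and the probe's own. The procedure was tested on simulated arrays. The changes planted there were larger than any of a member probe within a line, and only in probes detected on every array. That test therefore cannot tell how changes of the size seen here are called.

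All member genes are named, though values are not given for every undetected probe. From each other list, up to 3 genes with the largest rise and 3 with the largest fall per line are named among those past the threshold, with arrays not overlapping and both arrays of the brighter group detected. NEFH, NES and TUBB3 are given as well, chosen after their values were seen. The members and lists were chosen with earlier results of these data known. Gene starts and promoter windows are those of RefSeq (GRCh38.p14). Differences between replicates 1 and 2 of the 2 groups correlated at -0.00447 (SH-EP2) and -0.111 (SH-SY5Y), over 14577 probes. No pairing by replicate number was seen, but this cannot settle whether samples were prepared in pairs, which labels and methods do not say. Alternatives were the background correction (neqc, normexp or none), median scaling, a filter on dim probes, the spread estimate, each line alone, a replicate block, the mean over probes and leaving out each array.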

Additional observations from a re-analysis of the deposited data

Results flagged for a closer look

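By the interaction test, 4 member probes passed a test of the difference between the lines in the effect of TRPM7 shRNA, and with median scaling 0 did. The log2 fold change in SH-EP2 minus that in SH-SY5Y cells was 0.42 for VIM ILMN_1782538 (adjusted p = 0.023) and 0.37 for VIM ILMN_2058251 (adjusted p = 0.0389). It was 0.85 for STMN2 ILMN_1795679 (adjusted p = 0.0241) and 1.00 for STMN2 ILMN_2126038 (adjusted p = 0.0191), with STMN2 detected on none (0) of the SH-EP2 arrays, so that its values set a change in SH-SY5Y cells against background and do not show that the effect differed. In the fit restricted to probes detected on at least 2 arrays, both STMN2 probes passed and the VIM probes had adjusted p-values of 0.0583 and 0.0665.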

How the results depend on the processing

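Counts of member probes past the threshold depended on the processing in 3 of the 4 comparisons. In SH-SY5Y cells 5 passed (1 higher, 4 lower). With normexp 8 passed, and 8 without background correction (4 higher, 4 lower in each). With neqc 6 passed (3 higher, 3 lower), and 5 with each line fitted alone (3 higher, 2 lower). With median scaling 2 passed (both higher), and 2 with the replicate block (both lower). None (0) passed with eBayes without an intensity trend or with a per-probe test without eBayes. Of all probes, 27 were higher and 37 lower without the trend, and 16 and 34 per probe. Leaving out 1 array gave 1 to 7. In SH-EP2 cells 1 passed, 1 with the replicate block, 0 with normexp, 0 without background correction, 0 without the trend and 0 per probe. Leaving out 1 array, the log2 fold change of the called MAP2 probe lay between 0.70 and 1.58. Of the differences between lines 4 passed, 2 with probes detected on at least 2 arrays, 1 with the replicate block, and 0 with median scaling, without the trend and per probe, and leaving out 1 array gave 0 to 4. The comparison of the lines gave 10 to 14 against 13. Median scaling moved the median of all probes in SH-SY5Y cells from 0.00 to 0.09, and the share of calls that were higher from 38.2% to 66.1% (for the difference between lines from 56.6% to 37.1%). Whether the replicate numbers pair the samples is not known. The replicate block took the calls over all probes in SH-SY5Y cells from 382 higher and 617 lower to 282 and 519. A block with the SH-SY5Y pairs crossed, added after seeing the data, gave 6 member probes in SH-SY5Y cells, and 587 higher and 833 lower of all probes. Without an intensity trend the log2 fold changes were the same and the adjusted p-values of DCX, STMN2 and VIM rose to between 0.225 and 0.632, and the mean over both DCX probes was 0.09 (adjusted p = 0.96). Where an array was left out, its group's other array was assumed to vary like the other groups.

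Signs turned only for probes with changes that did not pass. In SH-SY5Y cells, median scaling gave 0.073 for MAP2 ILMN_2388484 and 0.15 for MAPT ILMN_2310814, neqc gave 0.0177 for MAP2 ILMN_2276461 and 0.0064 for MAPT ILMN_1710903, and each line alone gave 0.0121 and 0.0061 for the last 2. Leaving out 1 array gave, in SH-SY5Y cells, -0.0753 to 0.0862 for PRPH, -0.58 to 0.56 for MAP2 ILMN_2276461, -0.14 to 0.0893 for MAPT ILMN_2310814 and -0.65 to 0.60 for MAPT ILMN_1710903. In SH-EP2 cells it gave -0.11 to 0.0679 for PRPH and -0.37 to 0.44 for MAP2 ILMN_2388484. For the difference between lines it gave -0.11 to 0.0611 for PRPH and -0.26 to 0.54 for MAP2 ILMN_2388484, and between the control lines -0.66 to 0.60 for MAP2 ILMN_2283915. The cause of these changes was not tested.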

Other observations

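Some listed genes that did not pass in SH-EP2 cells are given here, chosen after their values were seen. The keratin KRT19 was undetected on both control arrays (3.02 and 3.13) and detected on both TRPM7 shRNA arrays (4.46 and 4.61), with an adjusted p of 0.109. The filaments KRT8 and KRT18, detected on every SH-EP2 array and on no SH-SY5Y array, had mean log2 signals of 8.97 and 8.01 in control and 8.29 and 7.06 in TRPM7 shRNA cells (adjusted p = 0.189 and 0.113). TUBA4A, detected on every SH-EP2 array, read 9.12 and 9.24 in control and 8.31 and 8.18 in TRPM7 shRNA cells (log2 fold change -0.94, adjusted p = 0.0699).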
